A study of Mus musculus with 72 samples.

Results

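The genes described are 6 genes of polyamine synthesis and its feedback control, chosen by symbol from the 51826 genes of the count files: Odc1, Amd1 and Srm, which encode enzymes, and Azin1, Oaz1 and Oaz2, which encode regulators. For each, read counts in 4 fractions of mouse embryonic stem cells and the share of new to total mRNA over labeling time were taken. All 6 passed the minimum of 400 T counts in every library, with between 24979 and 209675 exonic T counts in their poorest library.

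Polyamines are small cations that bind nucleic acids and that dividing cells must make or import. Ornithine decarboxylase (Odc1) makes putrescine, S-adenosylmethionine decarboxylase (Amd1) makes the aminopropyl donor, and spermidine synthase (Srm) joins both into spermidine. Odc1 and Amd1 proteins are short-lived, and the Odc1 protein is handed to the proteasome by antizymes (Oaz1, Oaz2), whose own translation requires a polyamine-driven shift of the reading frame. The antizyme inhibitor (Azin1) resembles Odc1, has no decarboxylase activity, and takes antizyme away from it.

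The cells were E14TG2a, a mouse embryonic stem cell line with no genetic change named in the labels, grown in 2i + LIF medium on gelatin. They were given 4-thiouridine (4sU), a uridine analog that is built into RNA during labeling and read as C in place of T after alkylation, so that new RNA is recognised by its T-to-C conversions. Sequential detergent extraction with digitonin and NP-40, with cycloheximide in the buffers, gave a cytosolic, a membrane and a nuclear fraction beside an unfractionated whole-cell extract, and poly(A) RNA was sequenced. Labeling lasted 15, 20 and 30 min in replicates 1 and 2. Replicates 3 and 4 were labeled for 20, 40, 60 and 120 min, while replicates 5 and 6 were labeled for 60 and 120 min, each in all 4 fractions. According to the labels, the dose was 500 µM up to 40 min and 100 µM from 60 min. The published methods instead point to the higher dose for the later libraries of the middle pair of replicates. In nuclei labeled for 60 min, the estimated conversion rate was 7.66% and 8.29% in replicates 3 and 4. In replicates 5 and 6 it was 3.25% and 3.53%. Of 72 libraries, 64 were used and the 8 libraries of 120 min from replicates 3 and 4 were set aside, since they did not enter the labeling analysis of the study. Among the 64 libraries used, only 20 and 60 min were run in more than 1 pair of replicates, and the labelled dose follows the time. At the other times, replicate pair, time and dose cannot be told apart in these libraries. Unlabeled cells were not analysed here.

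The libraries used held between 15382522 and 52975732 reads on genes. Stem cell genes were abundant in whole cells, with Pou5f1 at 1073 and Nanog at 650 CPM (reads of a gene scaled to the reads of its library). The fibroblast gene Col1a1 was at 0.543 and the endoderm gene Sox17 at 0.193 CPM. Other markers of other cell types were not all this low. Of the fibroblast genes, Thy1 was at 6.17, Pdgfra at 1.41 and Col1a2 at 0.131 CPM. The endoderm genes Gata4 and Gata6 were above Sox17. The neural genes Tubb3, Pax6 and Neurod1 were at 44.6, 7.38 and 4.94 CPM. The nuclear RNA Malat1 was at 806 CPM in the nucleus and 118 CPM in the cytosol. Hspa5, which encodes a chaperone of the endoplasmic reticulum, was at 1992 CPM in the membrane fraction and 68.5 CPM in the cytosol. The whole-cell library of replicate 5 at 60 min had the fewest reads. In whole cells of replicate 6, the library labelled 60 min had a higher share of new RNA than the library labelled 120 min in 11449 of 11575 genes (98.9%), against 1.58% to 5.33% of genes in the other 7 such pairs of libraries from replicates 5 and 6. The 6 genes followed this order, with Odc1 at 15.1% in the library labelled 60 min and 7.12% in that labelled 120 min, against 9.56% and 15.1% in replicate 5. Results from whole cells that average over replicates are therefore given with and without replicate 6. Tests of whole-cell shares average the libraries of a replicate, so that an exchange of both labels would not move them.

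Sequences are shown first at the sites by which this pathway is known to be controlled, read from GENCODE vM21 transcripts on GRCm38. In both antizyme genes, the 28 bases around the site of the frame shift carry the last codon of the first frame and a stop codon, which are in capitals.
Oaz1, chr10:80828281-80828308, plus strand: ctcggtggtgcTCCTGAtgtccctcacc
Oaz2, chr9:65686258-65686285, plus strand: ctctgtggtgcTCCTGAtgcccctcacc
The first frame ends after 68 codons in Oaz1 and after 32 codons in Oaz2, and the annotated coding sequence goes on for 159 and 157 codons after 1 skipped base. In the 5′ UTR of Amd1, a short upstream reading frame encodes the hexapeptide MAGDIS, whose synthesis is known to respond to polyamines. The whole frame is in capitals.
Amd1, chr10:40302155-40302175, minus strand: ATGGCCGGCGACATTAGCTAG

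The 3′ UTRs of the 6 reference transcripts differed in length and in the number of ATTTA motifs, the core of AU-rich elements. The 3′ UTR was 2934 bases in Azin1, 1871 in Amd1, 1075 in Oaz2, 333 in Odc1, 312 in Srm and 286 in Oaz1, against a median of 1043 bases over 10503 genes. ATTTA was searched on the transcribed strand and occurred 11 times in Azin1, 7 times in Amd1, once in each of Odc1, Srm and Oaz2, and 0 times in Oaz1. At least 1 was present in 68.4% of genes, while 12.8% held as many as Amd1 and 4.87% as many as Azin1. Per kilobase of 3′ UTR, the motif occurred 3.75 times in Azin1, 3.74 in Amd1, 3.21 in Srm, 3.00 in Odc1 and 0.930 in Oaz2. The longer motif TTATTTATT was in none of the 6 and in 7.54% of genes. A window of 25 bases is shown for Azin1 and Amd1, with the most copies, and for Odc1, with ATTTA in capitals.
Azin1, chr15:38489639-38489663, minus strand: ttttagttATTTAattagtaATTTA
Amd1, chr10:40288689-40288713, minus strand: ttgctcctgcATTTAgagtcctata
Odc1, chr12:17550802-17550826, plus strand: tggggggaccATTTAacttactgct

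Expression was compared between genes as TPM, which divides counts by exon length before scaling each library to the same total. In whole cells Odc1 was highest at 427 ± 119 TPM (mean of 16 libraries, SD between the means of 6 replicates), followed by Srm at 237 ± 101, Oaz1 at 195 ± 24.1, Amd1 at 83.3 ± 17.2, Oaz2 at 53.0 ± 13.9 and Azin1 at 50.5 ± 10.1 TPM. Without replicate 6 the means were 419, 249, 194, 81.8, 51.8 and 49.2 TPM in the same order. Odc1 was the highest of the 6 in every library used. Srm and Oaz1 did not differ beyond their spread, nor did Oaz2 and Azin1. Odc1 lay at the 98.2 percentile of 13393 expressed genes and Azin1 at the 78.6 percentile.

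In whole cells, Odc1 ranged from 207 to 592 TPM over 16 libraries with a median of 460. Its lowest value was in replicate 5 at 60 min, and the replicate means ran from 267 in replicate 1 to 586 in replicate 3. Srm ranged from 108 to 387 TPM with a median of 220. The Srm means were highest in replicates 3 and 4, at 371 and 324 TPM. They were 132 and 154 in replicates 5 and 6, and 149 and 229 in replicates 1 and 2. Oaz1 varied least, from 130 to 262 TPM with a median of 200. Amd1 ranged from 30.3 to 116 TPM with a median of 89.1, Oaz2 from 31.5 to 73.6 with a median of 58.5, and Azin1 from 16.6 to 68.5 with a median of 54.9. The lowest values of Odc1, Amd1, Srm, Oaz2 and Azin1 were all in the library of replicate 5 at 60 min, the shallowest one. Its gene counts also differed strongly from those of replicate 5 at 120 min, with a chi-square of 211 per degree of freedom. The other compared pairs of libraries ran from 4.35 to 14.7. The cause was not tested, and values of replicate 5 in whole cells carry this limit.

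All 6 genes had more of their reads in the cytosol than the median gene, relative to the nucleus. Odc1 reached 767 ± 149 TPM in the cytosol and 343 ± 87.4 TPM in the nucleus (mean of 16 libraries, SD between the means of 6 replicates). In the cytosol its 16 libraries ran from 491 to 955 TPM with a median of 775, and in the nucleus from 181 to 516 with a median of 336, so that the groups overlapped in TPM across replicates. Within each replicate, the ratio of nucleus to cytosol lay between 0.377 and 0.503. The ratio of the mean TPM in both fractions was 0.447 for Odc1, with an SD of 0.0478 between the replicate ratios, and lay at the 2.58 percentile of 14756 genes, whose median was 1.43. This ratio of means was 0.558 for Oaz2, 0.657 for Oaz1, 0.694 for Srm, 0.810 for Amd1 and 1.07 for Azin1. Azin1 varied most between replicate pairs, from 1.43 in replicates 1 and 2 to 0.852 in replicates 5 and 6. These are levels relative to each library's total, and do not measure molecules per cell.

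The edgeR quasi-likelihood test on counts summed per replicate found 5 of the 6 genes lower in the nucleus than in the cytosol, where 18.9% of the 18497 genes tested were lower, 37.5% higher and 56.5% called in all (limits were 0.05 on the adjusted p and 0.5 on the size of the log2 fold change). Odc1 in the nucleus was at 0.371 of its cytosolic level (log2 fold change -1.43, SE 0.122, adjusted p = 1.9e-08) and Oaz2 was lower by 2.11-fold (log2 -1.08, SE 0.138, adjusted p = 2.05e-06). Srm was at log2 -0.78 (adjusted p = 3.22e-05), Oaz1 at -0.76 (adjusted p = 0.000899) and Amd1 at -0.57 (adjusted p = 0.00320). Azin1 was at -0.18 with an SE of 0.185 and did not pass the test (adjusted p = 0.403). The median log2 fold change was -0.77 over the 6 genes and 0.25 over all genes. The scaling was unstable in this comparison: without replicate 4, or with single libraries, the median over all genes was -0.03 and -0.02, and that of the 6 genes was -1.02 in both cases. The split of higher against lower genes then went from 6939 and 3505 to 5153 and 4797 without replicate 4, and to 5326 and 4886 with single libraries. Amd1 lost its call without replicate 3, at log2 -0.47.

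**Figure D1:**
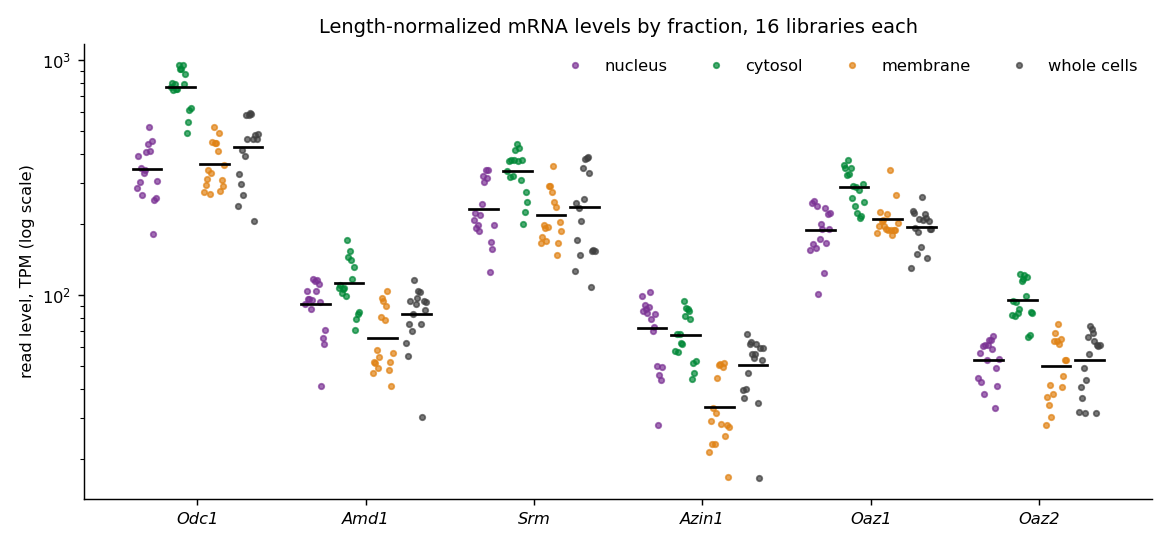
Expression of the 6 genes in TPM (log scale) in the nucleus, cytosol, membrane fraction and whole cells. Each point is 1 library and bars give the mean of the 16 libraries of a fraction. Odc1 stands highest in every fraction, with 767 TPM in the cytosol and 343 TPM in the nucleus, and Azin1 has similar means in both, 67.9 and 72.5 TPM.

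Toward the membrane fraction, 3 of the 6 genes were lower than in the cytosol, where 9.12% of all genes were lower, 21.1% higher and 30.2% called. Odc1 was at log2 -0.66 (SE 0.120, adjusted p = 0.000140), Azin1 at -0.64 (SE 0.186, adjusted p = 0.00974) and Oaz2 at -0.52 (SE 0.137, adjusted p = 0.00514). Oaz2 fell just under the fold limit when replicate 1, 2, 3 or 4 was left out, at -0.48 to -0.49. Amd1 (-0.39, adjusted p = 0.0511), Srm (-0.20) and Oaz1 (-0.01) did not pass. The median gene was at -0.16. The ratio of mean membrane to mean cytosolic TPM ran from 0.473 for Odc1 to 0.729 for Oaz1, so that all 6 mRNAs lay under 1.5, the upper limit set for cytosolic mRNAs in the published methods.

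Whole-cell levels of the 6 genes did not detectably follow the labeling time, in a test that also used the whole-cell libraries of 120 min from replicates 3 and 4. At the higher dose, the paper compared with unlabeled cells instead. It reported no differentially expressed genes up to 40 min, only Kantr at 60 min, and many from 120 min. Samples labeled for 120 min or longer at this dose were excluded there. At the lower dose, the paper compared later times with 60 min, as done here for replicates 5 and 6, and reported no such genes. A change already present at 20 min cannot be seen here. With 20 min of replicates 3 and 4 as the reference, 0 of the 6 genes were called at 40, 60 or 120 min, and 0 at 120 against 60 min in replicates 5 and 6, where 0.0%, 0.0%, 0.113% and 0.0% of 16858 genes were called. Over all genes, the edgeR calls were 0, 0, 19 and 0, the genes with an unadjusted p under 0.05 were 1172, 747, 1656 and 123, and DESeq2 called 1, 0, 113 and 0. For Odc1 the log2 fold changes were 0.22, 0.09, 0.23 and 0.08, each with an SE of 0.138. The last comparison includes the libraries of replicate 6 whose order is in doubt, and an exchange of their labels would turn the direction of that replicate. In replicate 5 alone, the log2 fold changes of the 6 genes ran from -0.60 for Oaz1 to 0.67 for Azin1. They rest on 1 library per time, and these 2 libraries differed strongly in their counts, as given above. Oaz1 had the widest of the 6 errors, with an SE of 0.258 beside values from -0.39 to 0.40.

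Labeling separated the 6 genes. In whole cells, the share of new mRNA of Amd1 at 30 min was 15.3% and 14.1% in replicates 1 and 2, and that of Azin1 was 17.9% and 13.5%. The same libraries held 5.02% and 3.84% for Odc1, 4.89% and 2.25% for Srm, 6.32% and 6.22% for Oaz2, and 2.40% and 2.17% for Oaz1. Amd1 and Azin1 were above the median gene, which was at 5.25% and 5.15%, in both libraries, and Odc1, Srm and Oaz1 below it. At 60 min, Amd1 was at 20.9% and 15.6% in replicates 3 and 4 and at 36.2% in replicate 5. Oaz1 was at 5.17%, 4.26% and 6.29% in those libraries. The dose may differ between replicates 3 and 4 and replicate 5, as given above, so that their shares are not directly comparable.

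The limma test set each gene's share, averaged over the libraries of a replicate, against the median gene of that replicate. It took the 6 replicates as independent and held no term for the replicate pair. Where the 2 replicates of a pair lie close together and the pairs apart, its SE and p are too small. In whole cells 5 of the 6 genes differed from the median gene (69.4% of 11575 genes were called, 34.8% higher and 34.6% lower), so that a call by itself was common and the sizes carry the comparison. Amd1 was higher by 1.86-fold (log2 0.89, SE 0.113, adjusted p = 0.000159) and Azin1 by 1.74-fold (log2 0.80, SE 0.174, adjusted p = 0.00321). Oaz1 was lower by 2.50-fold (log2 -1.32, SE 0.168, adjusted p = 0.000159), Odc1 by 1.80-fold (log2 -0.85, SE 0.172, adjusted p = 0.00216) and Srm by 1.47-fold (log2 -0.55, SE 0.102, adjusted p = 0.00130). All 6 replicates showed the direction for each of the 5. Oaz2 lay at log2 -0.10 with an SE of 0.158 (adjusted p = 0.589), higher than the median gene in replicates 1 and 2 and lower in the other 4. Without replicate 6, the same counts of 5 genes with calls were found and the values were 0.91 for Amd1, 0.87 for Azin1, -1.24 for Oaz1, -0.75 for Odc1 and -0.53 for Srm.

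**Figure D2:**
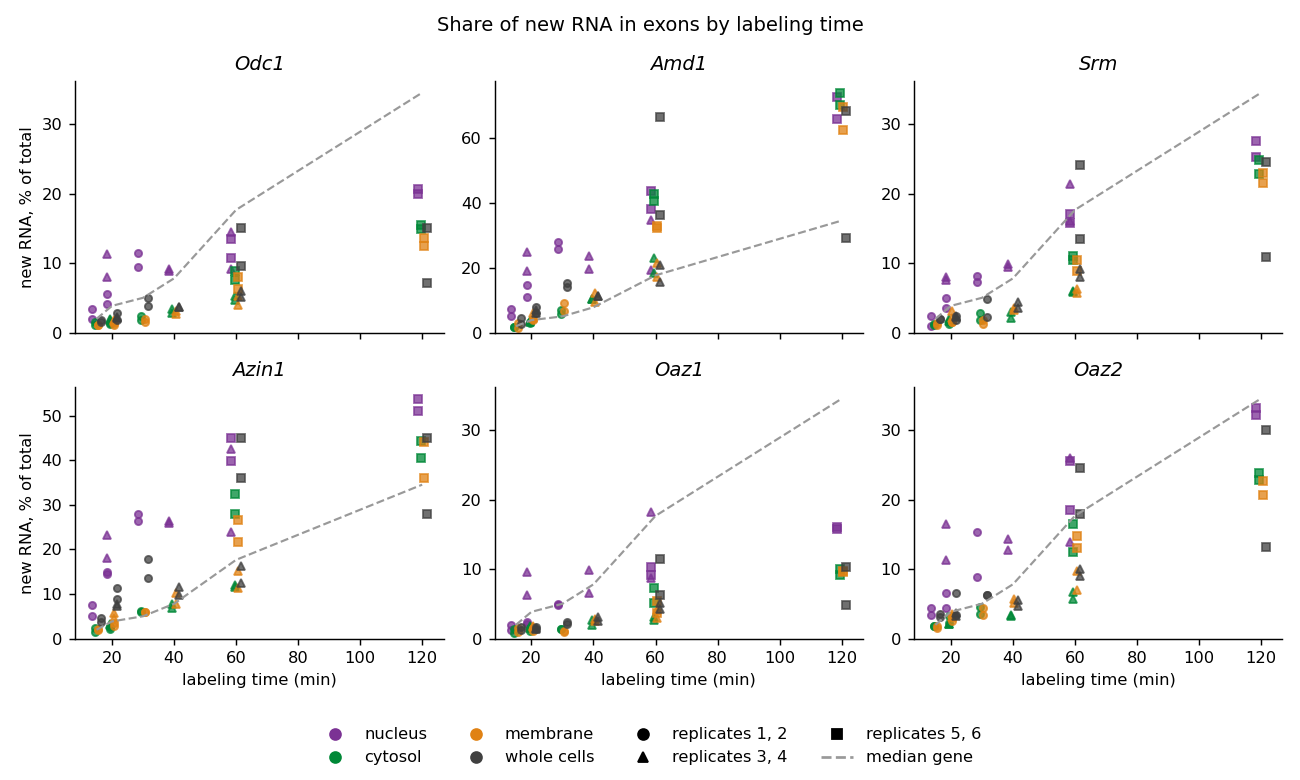
Share of new to total mRNA (%) of the 6 genes against labeling time (min) in the 4 fractions, 1 point per library and a panel per gene with its own y scale; the dashed grey line is the median gene, averaged over the libraries of a time. Amd1 rises to 74.0% in the cytosol at 120 min in replicate 5 while Oaz1 reaches 10.0% there.

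The distance from the median gene differed between replicate pairs, which differ in labeling time. The share of Odc1 in whole cells was 0.874 and 0.721 of that of the median gene in replicates 1 and 2, 0.560 and 0.510 of it in replicates 3 and 4, and 0.407 and 0.405 of it in replicates 5 and 6. Oaz1 went the same way, with mean log2 differences of -0.95, -1.23 and -1.80 in the 3 pairs. For Azin1 the log2 difference was 1.41, 0.57 and 0.40, and for Amd1 1.19, 0.71 and 0.78. Srm stayed between -0.46 and -0.67. Replicates 1 and 2, with the shortest labeling, thus held Azin1 farthest above the median gene and Odc1 nearest to it. At 20 min, which replicates 1 to 4 share, Azin1 was at 11.3% and 8.78% in whole cells of replicates 1 and 2 and at 7.31% and 7.73% in replicates 3 and 4, with the median gene at 3.24%, 2.92%, 3.45% and 3.47%. Odc1 was at 2.89% and 1.78% in the first pair and at 2.15% and 2.26% in the second, so that the pairs overlapped for Odc1 and did not for Azin1. Within replicates 3 and 4, Odc1 was at 5.93% and 5.07% at 60 min, where the median gene was at 11.2% and 11.8%.

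In the nucleus, Amd1 and Azin1 were again above the median gene, with log2 differences of 0.86 (SE 0.154, adjusted p = 0.00115) and 0.88 (SE 0.166, adjusted p = 0.00152). In all, 5 of the 6 genes were called there, and 65.6% of all genes, 33.2% higher and 32.4% lower. Oaz1 was at -1.02 (SE 0.152, adjusted p = 0.000411) and Srm at -0.47 (SE 0.122, adjusted p = 0.00893). Odc1 was at -0.55 (SE 0.189, adjusted p = 0.0288) but was lower in 4 of 6 replicates only. Its nuclear share exceeded that of the median gene by 1.09-fold and 1.04-fold in replicates 1 and 2, and was 0.486 and 0.484 of it in replicates 5 and 6. The call for Odc1 was lost without any 1 of replicates 3 to 6, at log2 -0.53 to -0.45. At 120 min, Odc1 stood at 20.6% and 20.0% in the nucleus, where the median gene had reached 44.5% and 41.3%.

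In the cytosol 5 of the 6 genes were called (70.6% of all genes, 35.1% higher and 35.5% lower) and in the membrane fraction likewise 5 (70.9%, with 35.2% higher and 35.7% lower). Amd1 was at log2 0.89 in the cytosol and 1.05 in the membrane fraction, and Oaz1 at -1.27 and -1.16. Odc1 was at -0.83 and -0.87, Srm at -0.61 and -0.52. Azin1 was closer to the median gene in the cytosol, at 0.44 (SE 0.0994, adjusted p = 0.00395), than Amd1 was. Oaz2 did not pass in either, at -0.27 and -0.00. At 120 min the cytosolic share of Amd1 was 74.0% and 70.3% in replicates 5 and 6, that of Azin1 40.6% and 44.4%, and that of the median gene 37.2% and 36.7%. Azin1 was thus close to the median gene at 120 min, while Amd1 was above it.

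**Figure D3:**
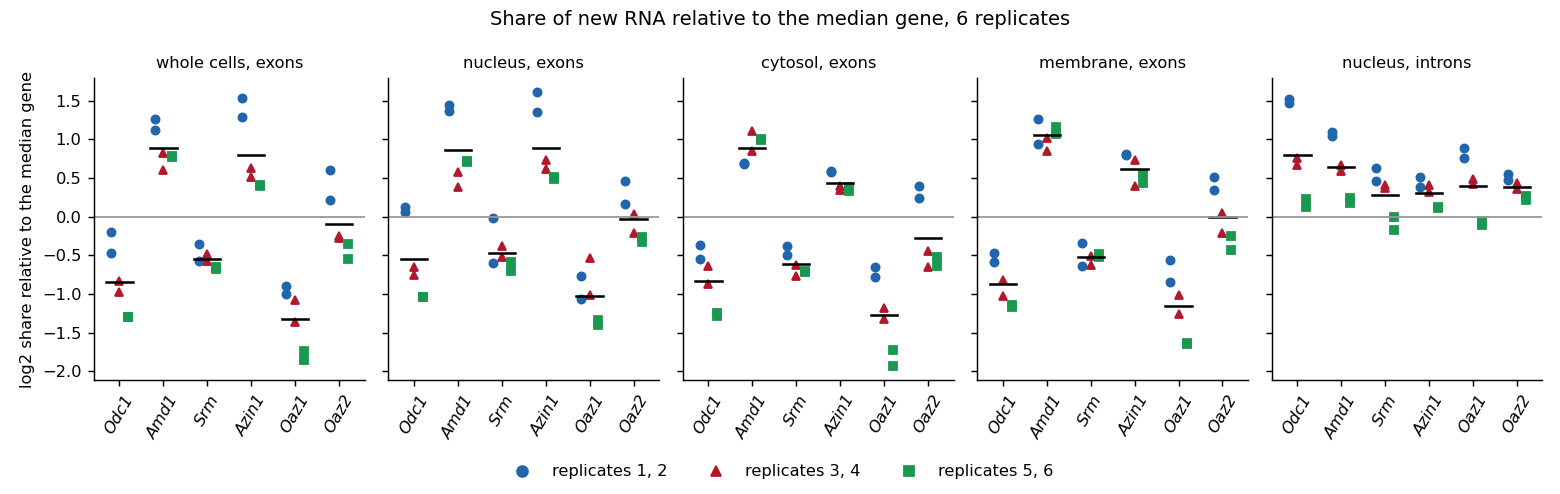
Log2 difference between the share of new mRNA of each gene and that of the median gene, per replicate (points) with the mean of 6 replicates, for exons in 4 fractions and for nuclear introns. Amd1 and Azin1 lie above 0 and Oaz1 and Srm below 0 in the exons of every fraction, and Oaz2 lies on both sides.

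The cytosolic share, set against the nuclear share of the same replicate, was lower on average for all 6 genes before centring. Mean ratios were 0.367 for Azin1, 0.413 for Odc1, 0.422 for Oaz2, 0.423 for Oaz1, 0.451 for Srm and 0.509 for Amd1, against 0.537 for the median gene. The highest replicate of Amd1 was at 1.07. Relative to the median gene, Azin1 alone of the 6 passed (33.1% of all genes were called, 17.3% higher and 15.8% lower), at log2 -0.55 (SE 0.164, adjusted p = 0.0347), and its call was lost without any 1 of replicates 1 to 5, at -0.43 to -0.61. Odc1 was at -0.38 (adjusted p = 0.0528) and lower in 6 of 6 replicates. Amd1 was at -0.08, from 0.534 and 0.558 of the median gene's ratio in replicates 1 and 2 to 1.36 and 1.30 in replicates 3 and 4.

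The genes Odc1, Amd1 and Azin1, whose proteins are known to be short-lived, were then compared with Srm and the antizymes. Protein lifetimes were not measured here, and the comparison does not set short-lived against long-lived proteins. In 9 pairs and 4 fractions, 36 comparisons were made with an exact sign flip test over 6 replicates, two-sided. The share of Amd1 and of Azin1 was higher than that of Srm, Oaz1 and Oaz2 in 6 of 6 replicates in all 24 comparisons (exact p = 0.03125 each, the smallest that 6 replicates allow, adjusted p = 0.0375 over 36). In whole cells, Amd1 exceeded Oaz1 by 4.89-fold (mean log2 ratio 2.29 ± 0.282, SD), Srm by 2.80-fold and Oaz2 by 2.02-fold. Azin1 exceeded Oaz1 by 4.57-fold, Srm by 2.61-fold and Oaz2 by 1.88-fold. Without replicate 6, the mean log2 ratios of Amd1 were 2.24 over Oaz1, 1.49 over Srm and 0.95 over Oaz2, and those of Azin1 were 2.20, 1.45 and 0.91. In whole cells, the values of all 6 replicates lay above 0, the lowest being 0.531 on the log2 scale for Amd1 over Oaz2. Over the 4 fractions, the lowest was 0.215, for Azin1 over Oaz2 in the cytosol.

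Odc1 did not go with Amd1 and Azin1. Its share was below that of Oaz2 in 6 of 6 replicates in all 4 fractions, by 1.71-fold in whole cells (log2 -0.77 ± 0.251) and by 1.89-fold in the membrane fraction (exact p = 0.03125, adjusted p = 0.0375). It was above that of Oaz1 in 6 of 6 replicates in the cytosol (1.38-fold) and in whole cells (1.42-fold), with the same exact p of 0.03125. Against Srm the mean log2 ratios were -0.08 ± 0.433 in nuclei, -0.22 ± 0.275 in the cytosol, -0.36 ± 0.304 with membranes and -0.30 ± 0.358 in whole cells, with both signs among the replicates of each fraction. Without replicate 6, the mean log2 ratios of Odc1 in whole cells were -0.77 over Oaz2, 0.52 over Oaz1 and -0.23 over Srm. In all, 30 of 36 comparisons had 1 sign throughout. With any replicate left out, the smallest exact p is 0.0625 and no comparison can pass, while 30 to 32 kept 1 sign.

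An apparent half-time was computed per replicate from a curve that rises to a full share after a delay of 5 min. It sums up the shares and is not a decay rate, since RNA reaching the cytosol is already older. In the nucleus it was 80.3 ± 26.5 min for Amd1 and 79.2 ± 18.4 min for Azin1 (SD, n = 6), 170 ± 38.0 min for Oaz2, 225 ± 32.4 min for Srm, 260 ± 78.6 min for Odc1 and 365 ± 91.8 min for Oaz1, where the median gene was at 170 min. Amd1 and Azin1 did not differ beyond their spread, nor did Srm and Odc1. In the cytosol it was 181 ± 101 min for Amd1, 250 ± 93.2 for Azin1, 439 ± 158 for Oaz2, 574 ± 223 for Srm, 666 ± 164 for Odc1 and 967 ± 210 min for Oaz1, with 410 min for the median gene. Whole cells had the order of the cytosol, from 134 min for Amd1 to 766 min for Oaz1, and without replicate 6 these were 141 and 738 min. Values depended on the replicate pair: Amd1 in the cytosol was at 290 min in replicates 1 and 2 and at 66.0 min in replicates 5 and 6.

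Introns gave another order than exons. At 15 min, Odc1 had the most labeled introns of the 6 in the nucleus, with 50.1% and 42.6% in replicates 1 and 2, at the 97 and 96 percentile of 11117 genes, where the median gene was at 14.2% and 12.7%. At 30 min they were at 97.9% and 102% against 35.6% and 41.2% for the median gene. Amd1 introns were at 27.8% and 22.7% at 15 min, Oaz1 at 24.6% and 23.3%, Srm at 21.9% and 12.1%, Azin1 at 18.5% and 15.0%, and Oaz2 at 15.4% and 15.0%. A share over 100% is a conversion rate of the gene above that estimated for its library, and its cause was not tested.

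Relative to the median gene, all 6 genes were called higher in nuclear introns, where 32.4% of genes were higher, 31.7% lower and 64.1% called. The log2 differences were 0.80 for Odc1 (SE 0.296, adjusted p = 0.0352), 0.64 for Amd1 (SE 0.173, adjusted p = 0.0121), 0.40 for Oaz1, 0.38 for Oaz2, 0.31 for Azin1 and 0.28 for Srm. They were smaller in the replicate pairs with longer labeling, and the cause was not tested. Odc1 stood 2.88-fold and 2.76-fold above the median gene in replicates 1 and 2, at log2 0.72 in replicates 3 and 4, and 0.18 in replicates 5 and 6, and Srm and Oaz1 were at -0.09 and -0.08 in replicates 5 and 6. Odc1 was no longer first there, at 1.09-fold and 1.17-fold, with Amd1 at 1.18-fold in replicate 5 and Oaz2 above it in replicate 6, and in replicate 3 both Odc1 and Amd1 were at 1.59-fold. The calls for Odc1 and Srm were lost without any 1 of replicates 1 to 4, and that for Oaz1 without replicate 1, 2 or 4. Those for Amd1, Azin1 and Oaz2 were kept in each case.

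Odc1 also had few intronic reads for its exonic reads. In the nucleus, 7.94 ± 3.59 intronic T counts were found per 100 exonic ones (mean of 16 libraries, SD between the means of 6 replicates), at the 3.97 percentile of 9837 genes, whose median was 43.3. The value was 14.7 ± 6.54 for Srm, 16.2 ± 6.73 for Amd1, 26.5 ± 15.1 for Oaz1, 28.4 ± 11.4 for Azin1 and 34.9 ± 14.2 for Oaz2. All 6 were below the median gene. Total intron length was not set against these values. Genomic spans were 6.71 kb for Odc1, 14.7 for Amd1, 31.8 for Azin1, 22.3 for Oaz2, 3.49 for Srm and 2.64 kb for Oaz1.

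**Figure D4:**
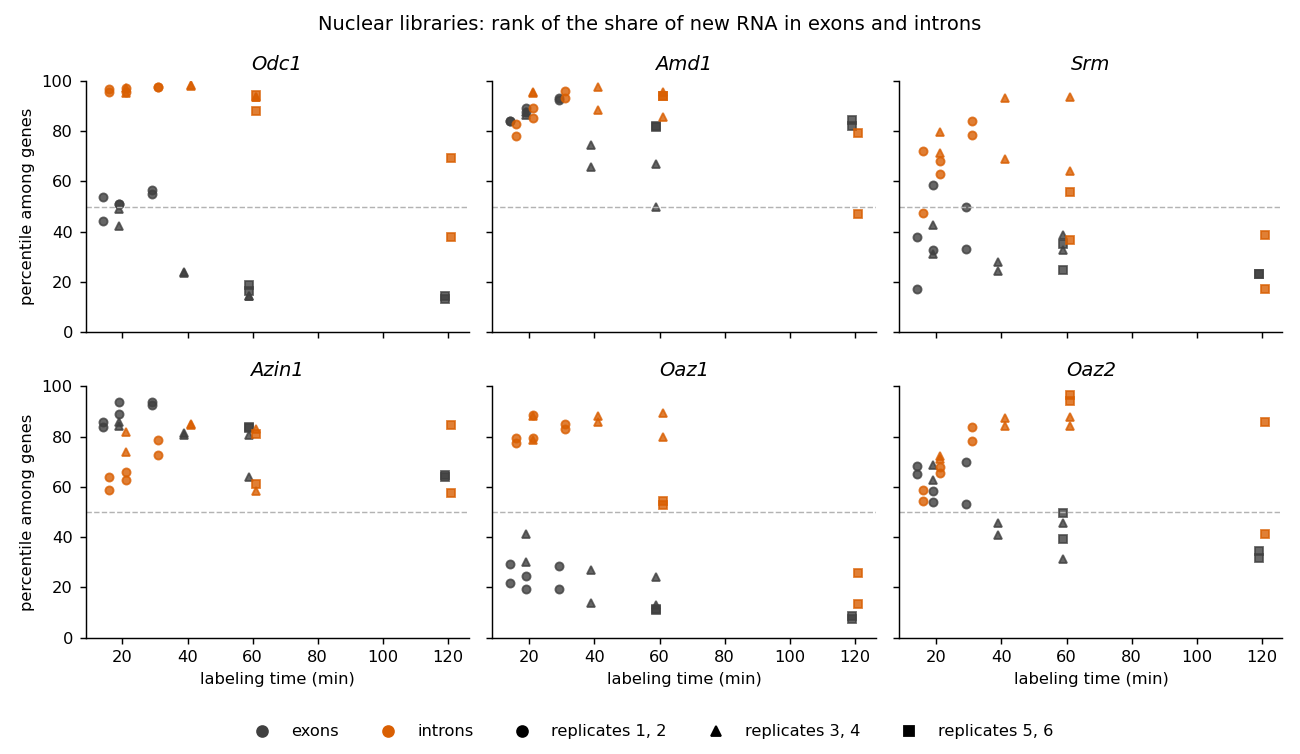
Percentile of the share of new RNA of each gene among all genes, in nuclear introns and in nuclear exons, 1 point per nuclear library against labeling time (min). Odc1 introns start at the 97 and 96 percentile at 15 min and its exons at the 54 and 44 percentile, and its exons are at the 13 and 14 percentile at 120 min.

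Within a gene, exons near the 3′ end had higher shares at short labeling times than exons far from it. In Azin1, the exon centred 1.52 kb from the end of the gene was at 8.27 ± 2.18% at 15 min (SD, n = 2, replicates 1 and 2) and at 33.3 ± 1.02% at 30 min, while the exon at 31.7 kb was at 2.29 ± 1.75% and 1.42 ± 0.766%. At 120 min in replicates 5 and 6 these exons were at 53.4% and 52.7%. In Amd1, the last exon was at 30.1 ± 0.751% at 30 min and the first, 14.5 kb away, at 8.37 ± 4.68%. In Odc1, a shorter gene, they were at 14.3 ± 1.46% and 6.56 ± 0.554% at 30 min. The far exons of Azin1 had between 401 and 2451 T counts in their poorest library, so that single values there rest on few conversions. Shares and apparent half-times of whole genes, in exons and introns, were not corrected for this distance or for gene length. The paper fitted an elongation rate for this purpose.

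**Figure D5:**
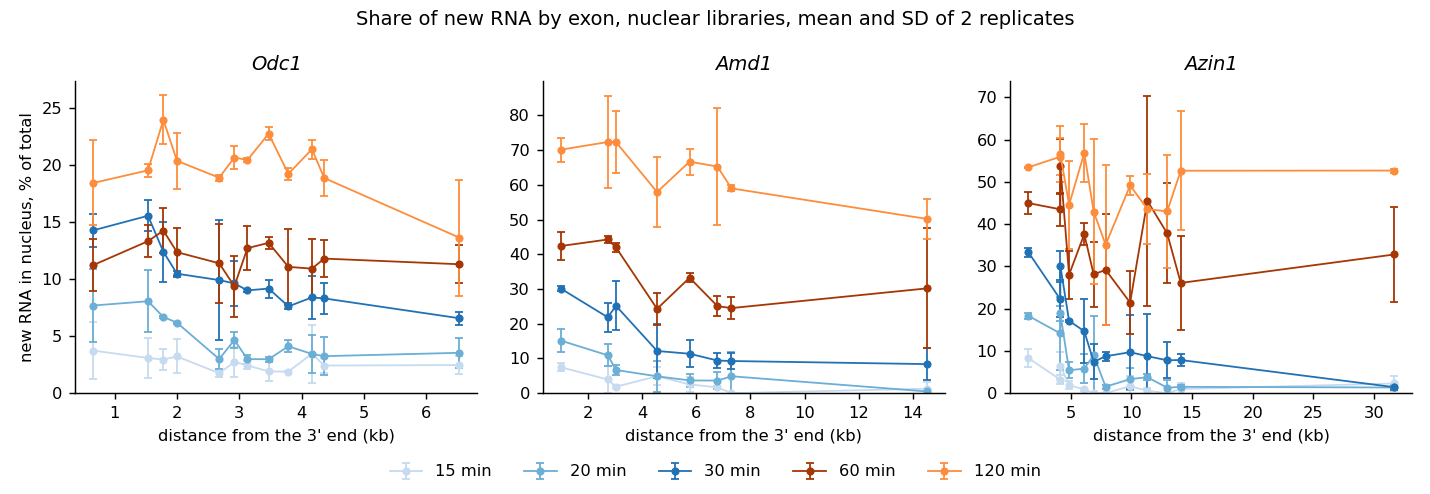
Share of new RNA (%) in nuclear exons of Odc1, Amd1 and Azin1 against the distance of the exon midpoint from the 3′ end of the gene (kb), for exons with at least 1000 T counts in every nuclear library; points are means and bars SDs of 2 replicates (1 and 2 up to 30 min, 5 and 6 from 60 min), coloured by labeling time. At 30 min the share falls with distance, from 33.3% to 1.42% in Azin1.

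Of 22 other genes of the pathway, 17 could be tested for exonic shares. In whole cells 3 were higher than the median gene, 9 lower and 5 were not called, with a median log2 difference of -0.53, while over all 11575 genes it was -0.03, with 34.8% higher, 34.6% lower and 69.4% called. Without replicate 6 the counts were 3, 9 and 5 and the median was -0.54. The 3 that were higher were Mat2a (log2 1.62) and Mat2b (1.19), which form the enzyme that makes S-adenosylmethionine, and Amd2 (1.13), a near copy of Amd1. Among those lower were spermine synthase, Sms (-0.78), the hypusine carrier Eif5a (-1.01), Ahcy (-1.05), which clears S-adenosylhomocysteine, the polyamine transporter Atp13a2 (-1.11), and the oxidases Smox (-0.43) and Paox (-0.60). The spermidine acetyltransferase Sat1 was at -0.02 and was not called. For nuclear exons 4 were higher and 8 lower, for cytosolic ones 4 and 11, for those of the membrane fraction 4 and 12, and for introns 6 and 7 of 16. Over all genes, 33.2% were higher and 32.4% lower in nuclear exons, 35.1% and 35.5% in the cytosol, 35.2% and 35.7% in the membrane fraction, and 32.4% and 31.7% in introns.

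In levels, 4 of the 20 pathway genes tested were higher in the nucleus than in the cytosol and 7 lower, with a median log2 of -0.16, beside 37.5% of all genes higher and 18.9% lower. Mat2a was higher in the nucleus at 0.73 and Eif5a lower at -1.15. The transporters Atp13a2 and Atp13a3 were higher in the membrane fraction than in the cytosol, at 2.75 and 2.51, the only pathway genes called higher there, with 3 called lower, beside 21.1% and 9.12% of all genes. In labeling time, 0 of 20 were called in each of the 4 comparisons.

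Reads shared with near copies could touch 3 of the 6 genes. Amd2 held 3.41% and Amd-ps3 1.63% as many reads as Amd1, Oaz1-ps 3.06% as many as Oaz1, and Oaz2-ps 0.195% as many as Oaz2. How reads of these copies were split was not tested, so that the share given for Amd2 is uncertain.

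For each gene the 3 genes with the most similar shares over 64 libraries were found by the root mean square difference in percentage points among 11574 genes. They were Gdi2 (0.777 points), Pdha1 and Cct4 for Odc1, Ppp1ca (0.856), Eif3f and Atp5j for Oaz1, and Cdc20 (1.45), Mcm7 and Cul2 for Srm. For Oaz2 they were Plaa (1.59), Cs and Arf3, for Azin1 Trim25 (2.72), Arih2 and Ireb2, and for Amd1 Tle4 (3.26), Cdc42se1 and Pik3ca. The median of this difference over all genes was 10.7 points from Odc1 and 16.1 from Amd1. Among the 6 genes, Odc1 and Oaz1 were closest at 2.34 points and Amd1 and Oaz1 farthest apart at 24.6 points.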

How the data were processed

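Read counts per gene (HTSeq 0.11.1 after STAR 2.7.6, per the submitters' notes; GRCm38) were deposited by the authors without normalization. Counts of T positions and of T-to-C conversions per exon, gene and intron, and the conversion rate of each library, a fraction from a binomial mixture model, were also deposited by the authors, as was the share of new mRNA, a ratio in which conversions per T are divided by that rate. Recomputed shares differed by at most 2.42e-13, and no background was subtracted. Rows that name no gene held 30.7% to 48.8% of a count file and were left out. RSEM 1.3.3, also listed, was not used here.

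CPM and TPM were computed here from the counts with annotated exon lengths (51633 of 51826 genes matched). Fractions were compared with edgeR 4.0.16 (filterByExpr, TMM, quasi-likelihood test) in R 4.3.3 on counts summed per replicate, and shares with limma 3.58.1 on log2(share + 0.002) minus the median gene, limited to genes whose T count was 400 or more in each library, both with Benjamini-Hochberg adjustment over all genes. Log2 differences of low shares are understated by the pseudocount. Pairs of genes were compared with exact sign flip tests. Neither the limma nor the sign flip test held a term for the replicate pair. Scripts were tested on simulated data. Replicates are independently passaged cultures (n = 6). Same-numbered replicates deviated together between fractions (r from 0.187 to 0.558 for nucleus and cytosol, 0.551 to 0.685 for membrane and cytosol). Deviations were taken from the mean of all 6 replicates, so differences between replicate pairs also enter these r. Whether the numbers pair single samples was not tested. Reads carry no molecular identifiers, and errors are SDs or SEs between replicates.

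The 6 genes, the list of 22 other pathway genes and the tests were chosen with earlier results of these data known. Genes named are those lists, the 3 nearest genes of each member, near copies and markers. Alternatives were DESeq2 1.42.0, other filters, pseudocounts, centres and T minimums, a replicate block, and leaving out replicates.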

Additional observations from a re-analysis of the deposited data

Results flagged for a closer look

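Among 90 groups of replicate values, 3 held a value far from the others, where chance gives about 1 in 20. The cytosolic against nuclear share of Oaz2 in replicate 1 was at log2 0.0900 relative to the median gene, above the other 5 replicates. The apparent half-time of Amd1 in the nucleus was 132 min in replicate 4, the longest of 6. That of Oaz1 in the nucleus was 189 min in replicate 3, the shortest of 6.

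In 14 cases, 2 pairs of replicates lay on opposite sides of the median gene, with both replicates of a pair on 1 side. These differences were not tested, and the pairs also differ in labeling time. Oaz2 was above the median gene in replicates 1 and 2 and below it in later pairs, with mean log2 differences of 0.41 against -0.26 and -0.45 in whole cells, 0.31 against -0.55 and -0.58 in the cytosol, 0.31 against -0.30 in the nucleus and 0.43 against -0.34 in the membrane fraction. Odc1 exons in the nucleus were at 0.0874 in replicates 1 and 2, -0.70 in replicates 3 and 4, and -1.04 in replicates 5 and 6. Srm introns were at 0.54 and 0.39 in the first pairs and at -0.0871 in replicates 5 and 6, and Oaz1 introns at 0.82 and 0.46 against -0.0809. The cytosolic against nuclear share of Amd1 was at -0.87 in replicates 1 and 2, 0.41 in replicates 3 and 4, and 0.23 in replicates 5 and 6.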

How the results depend on the processing

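For the levels of the 6 genes in fractions, 67 of 72 values kept their call and direction with a replicate left out, 5 fell short of a limit, and 60 of 60 kept them under other alternatives. For shares, 194 of 216 kept them with a replicate left out (20 lost and 2 gained a call) and 213 of 216 otherwise. No called value changed sign, and 21 values that were not called did. Pair comparisons with 1 sign numbered 30 to 32 under every setting. The replicate block gave 11471 calls for nucleus against cytosol and 6558 for membrane against cytosol and changed no call of the 6 genes. Over labeling time, same-numbered samples were not paired by their deviations (r from 0.0339 to 0.132), and the block gave 31 calls in place of 19 at 120 against 20 min. Leaving out replicate 3 or 4 gave 0 there, and DESeq2 gave 113 there and 1 at 40 against 20 min. Without the filter on low counts, 66, 42, 227 and 49 genes were called at 40, 60 and 120 against 20 min and at 120 against 60 min. Calls for the cytosolic against nuclear share ran from 2100 without replicate 4 to 4054, with 3831 for all 6 replicates. The causes were not tested. Leaving out replicate 6 in whole-cell half-times and TPM was chosen after seeing the data. Depth limited the far exons of Azin1 and Oaz2, and unlabeled libraries, which would give the background of T-to-C conversions, were not analysed here.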

Other observations

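The 8 libraries of 120 min set aside from replicates 3 and 4 had Amd1 highest of the 6 genes in every fraction. In whole cells, Amd1 was at 45.4% and 38.1% in replicates 3 and 4, Azin1 at 21.1% and 17.1%, Srm at 21.4% and 19.8%, Oaz2 at 15.2% and 15.3%, Odc1 at 12.7% and 9.71%, and Oaz1 at 12.1% and 9.05%, where the median gene was at 24.0% and 23.7%. Azin1 was thus below the median gene in both of these libraries, while it was at 45.1% in replicate 5 at 120 min, above a median of 38.8%. In the nucleus Azin1 was at 41.2% and 28.5% with a median gene of 44.1% and 37.0%. Azin1 was at 23.7% and 20.8% in the cytosol, where the median gene was at 23.3% and 23.5%, and at 27.99% and 17.2% in the membrane fraction, where it was at 23.1% and 21.2%, so that replicate 3 had it above and replicate 4 below. Amd1 was above the median gene in all 8 libraries, and Odc1 and Oaz1 below it.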
